A study of Rattus norvegicus with 48 samples.

Results

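MiR-122 and miR-802 are miRNAs that the liver makes, and both arms of each were followed by name: rno-miR-122-5p, rno-miR-122-3p, rno-miR-802-5p and rno-miR-802-3p. These are 4 of the 763 mature rat miRNAs listed in each library, of which 629 had at least 1 read in some library, and the 4 were taken by name, as the arms of both genes. Small RNA was sequenced from 32 sera and 16 ulnae (a bone of the forelimb) of male rats. The ZDF rats carry a homozygous mutation of the leptin receptor and develop obesity and type 2 diabetes, and the WT rats are their lean counterparts. According to the study's methods every rat, controls included, had a femur defect of subcritical size and was fed chow high in fat and carbohydrate. For 12 weeks the rats received placebo, PTH (parathyroid hormone), an anti-sclerostin antibody or, in the ZDF genotype alone, insulin. Each genotype gave 5 placebo, 5 PTH and 4 antibody sera, and the insulin group 4 sera. Ulnae were sequenced for placebo and PTH only, 4 of each genotype and treatment. Ages are not in the labels. The labels name no batch or date of the experiments. The paper refers the antibody, PTH and insulin groups to different earlier publications, and the placebo groups to those of PTH and insulin. For the antibody against placebo, treatment and original publication therefore cannot be told apart. The part of the original study in the other contrasts was not tested.

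A miRNA is cut from a hairpin-shaped precursor as a pair of short strands, the 5p and the 3p arm, of which one is usually kept in larger amounts to guide the silencing of messenger RNAs. Targets are recognised mainly through the seed, bases 2 to 8 of the mature strand. MiR-122 is the dominant miRNA of hepatocytes, is tied to cholesterol and lipid metabolism and is widely used as a serum sign of liver cell damage. MiR-802 is made in liver, kidney and pancreas and has been linked to insulin resistance in obese rodents.

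The sequences show which strands were counted and how unlike the seeds of the miR-122 arms are. RefSeq's rat assembly GRCr8 gave a mature sequence for 2 of the 4 arms and a hairpin for both genes. The capitals in the mature sequences mark the seed. In the Mir122 hairpin the capitals mark the 5p and then the 3p arm.
rno-miR-122-5p: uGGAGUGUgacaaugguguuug
rno-miR-122-3p: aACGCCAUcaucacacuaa
Mir122 hairpin: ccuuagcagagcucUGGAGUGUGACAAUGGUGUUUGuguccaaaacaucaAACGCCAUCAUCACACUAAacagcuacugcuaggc
Mir802 hairpin: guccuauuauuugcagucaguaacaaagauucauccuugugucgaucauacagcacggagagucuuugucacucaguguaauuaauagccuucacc
No mature sequence is printed for rno-miR-802-5p and rno-miR-802-3p. Mature rno-miR-122-5p has 22 bases and the seed GGAGUGU, and rno-miR-122-3p has 19 bases and the seed ACGCCAU, so the arms have no seed in common. Among the 693 mature miRNA names in the RefSeq table, 0 others carry either seed. In GRCr8 the 85-base Mir122 hairpin lies on the plus strand of chr18:61028817-61028901, within the transcribed pseudogene LOC134482951 and opposite the miRNA gene Mir3591 on the minus strand. The 96-base Mir802 hairpin lies on the plus strand of chr11:46112362-46112457, within the long non-coding RNA gene LOC134480977. These positions are those of GRCr8, whereas the authors mapped the reads to the older assembly Rnor 6.0. The related rno-miR-122b had 0 reads in all 48 libraries.

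Serum libraries held 28015 to 205664 reads counted on miRNAs, and bone libraries 41627 to 1398702. Levels are given below as CPM, counts per 1000000 miRNA reads after TMM scaling, which adjusts each library for its composition. As a check of the tissues, lists of marker miRNAs were summed as CPM without TMM scaling. The sum of 4 cartilage and osteoblast miRNAs was 19148 to 56446 in bone (median 23726) and 15873 to 50371 in serum (median 28636), so this list did not separate the tissues. The sum of 4 striated muscle miRNAs was 53232 to 340296 in bone against 133 to 47118 in serum. The sum of 4 red blood cell miRNAs was 25634 to 273049 in serum and 6591 to 13611 in bone. Over the 4 arms of miR-122 and miR-802 the sum was 113 to 4640 in serum, with a median of 699.7, and 0 to 12.2 in bone, with a median of 3.85. In bulk serum, more copies shed by each liver cell and more cells shedding cannot be told apart.

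The liver miRNAs were among the middle ranks of the serum miRNAs. Rno-miR-122-5p, the arm of miR-122 that hepatocytes mainly keep, had 1553 reads in serum and was found in 32 of 32 sera. Rno-miR-122-3p had 798 reads in 32 sera, rno-miR-802-5p 1312 reads in 31 and rno-miR-802-3p 61 reads in 22, out of 2942603 miRNA reads. By mean level in placebo-treated WT rats, rno-miR-122-5p stood at rank 135, rno-miR-802-5p at rank 160 and rno-miR-122-3p at rank 171 of the 450 miRNAs with a read. In placebo-treated ZDF rats the ranks were 74, 73 and 94 of 400.

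The ZDF and WT placebo groups ask what the diabetic genotype alone did to these miRNAs. Rno-miR-122-5p, rno-miR-122-3p and rno-miR-802-5p were all higher in placebo-treated ZDF than in placebo-treated WT rats, by between 3.83- and 6.53-fold, and all 3 passed the test (edgeR's quasi-likelihood test, false discovery rate (FDR) below 0.2 after Benjamini-Hochberg adjustment over all miRNAs tested). That is 3 of the 3 arms with enough reads to be tested, where 4.27% of the 164 miRNAs tested were called higher and 6.1% were called in either direction. Rno-miR-122-3p and rno-miR-802-5p met the filter on reads mainly through the ZDF sera, where they were higher. The count of 3 of 3 is therefore a description and no separate support. The median log2 fold change over all miRNAs tested was -0.09.

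The largest of these differences was in rno-miR-802-5p, the main arm of miR-802. In replicates 1 to 5 of placebo-treated WT rats it stood at 178, 102, 90.4, 173 and 39.6 CPM, from 6 to 36 reads. In placebo-treated ZDF rats it stood at 960, 208, 815, 774 and 1286 CPM, from 18 to 103 reads. Replicate 2 was the lowest ZDF serum, and it still lay above the highest WT serum, so the groups did not overlap. The means were 809 ± 392 CPM (SD, n = 5) and 117 ± 58.6 CPM (SD, n = 5). The log2 fold change was 2.71 (SE 0.48; edgeR FDR 0.00475), and the two-sided exact permutation p of 0.00794 was the smallest that 5 against 5 allows.

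Rno-miR-122-3p, the strand usually found in lesser amounts, also separated the genotypes. WT placebo sera held 93.8, 137, 83.5, 101 and 66.1 CPM, from 7 to 19 reads. ZDF placebo sera held 369, 138, 498, 285 and 875 CPM, from 12 to 63 reads. ZDF replicate 2, at 138 CPM, lay just above the highest WT serum, replicate 2 at 137 CPM, and the other 4 ZDF sera lay at 285 CPM or more. The log2 fold change was 2.09 (SE 0.45; edgeR FDR 0.0197; exact permutation p = 0.00794), or 4.25-fold. Of the 164 miRNAs tested, 2.44% were higher in ZDF rats without overlap, among them rno-miR-122-3p and also rno-miR-802-5p.

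For rno-miR-122-5p itself, 1 ZDF serum lay below every WT serum and the groups overlapped. Its levels in WT placebo sera were 197, 353, 174, 188 and 92.5 CPM, from 13 to 40 reads. In ZDF placebo sera they were 831, 57.6, 775, 1154 and 1197 CPM, from 5 to 98 reads. The low value was again replicate 2, with 5 reads, and the highest ZDF serum exceeded it 20.8-fold. The log2 fold change was 1.94 (SE 0.54; edgeR FDR 0.0519), while the exact permutation test on log2 levels gave p = 0.103. Without replicate 2 the genotypes differed by a log2 fold change of 2.27 in rno-miR-122-5p, 2.34 in rno-miR-122-3p and 2.99 in rno-miR-802-5p, with FDR between 0.000396 and 0.00241.

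The minor arm, rno-miR-802-3p, had too few reads for the test. Its reads in WT placebo sera were 1, 0, 0, 1 and 0, and in ZDF placebo sera 2, 3, 4, 1 and 2. It was thus detected in 5 of 5 ZDF and 2 of 5 WT sera. On the log2 scale the exact permutation p was 0.0159, and at this depth no fold is given.

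**Figure D1:**
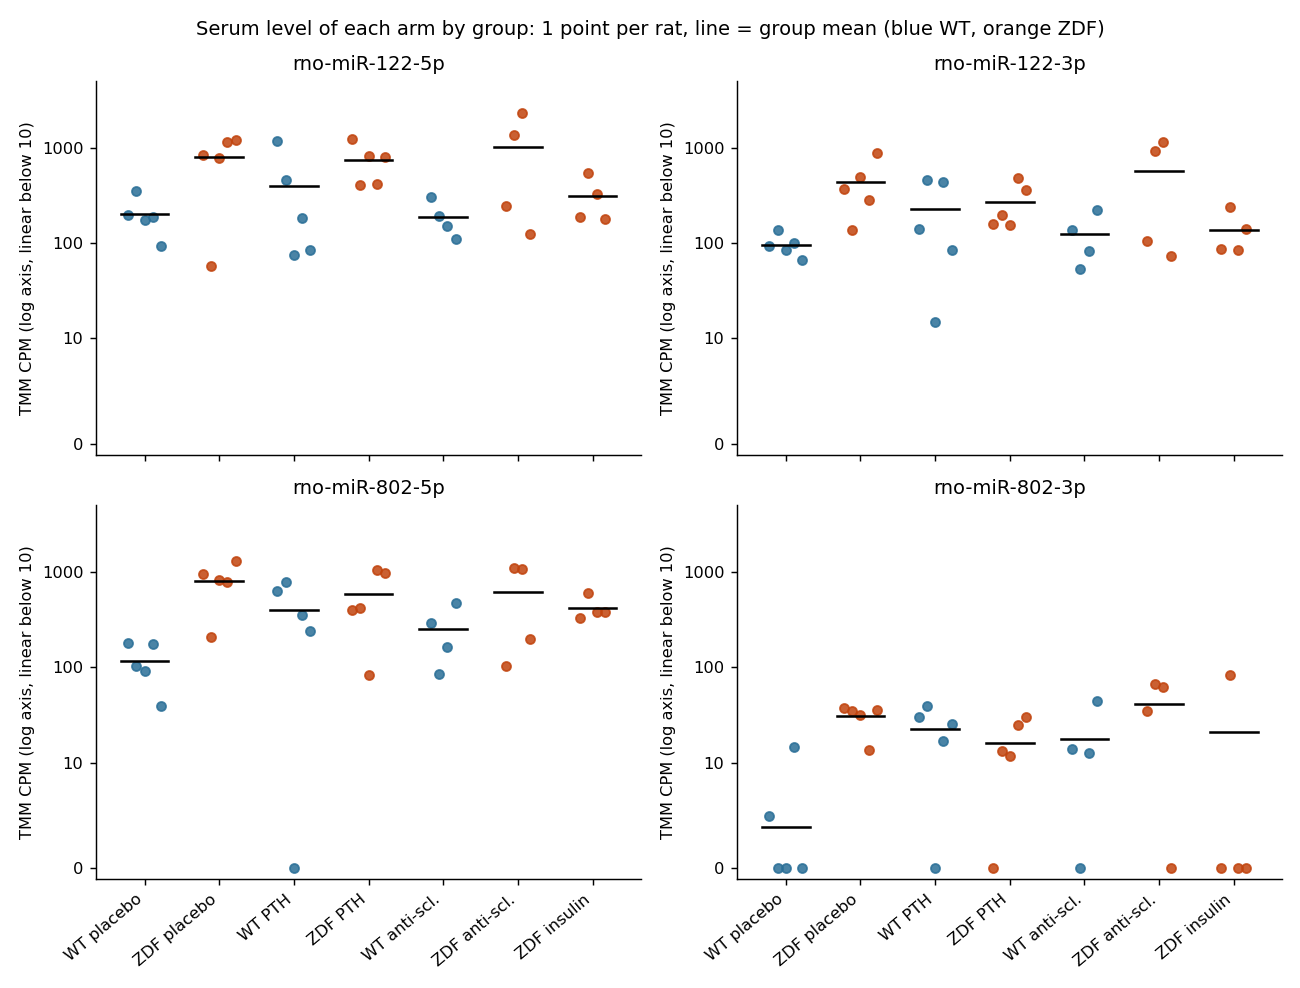
Levels of the 4 arms in each serum, in TMM CPM on an axis that is logarithmic above 10 and linear below, with 1 point per rat, a line at each group mean, WT in blue and ZDF in orange. For rno-miR-802-5p the 5 placebo-treated ZDF sera lay at 208 to 1286 CPM, above the 39.6 to 178 CPM of the 5 placebo-treated WT sera.

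The same genotype contrast was available under PTH and under the anti-sclerostin antibody, both treatments that build bone. Under PTH, edgeR called 0 of 158 miRNAs, 0% of those tested, with 5 at an unadjusted p below 0.05, and DESeq2 also called 0. Rno-miR-122-5p stood at 1184, 460, 74.6, 185 and 84.9 CPM in WT and at 1248, 408, 813, 416 and 789 CPM in ZDF rats. Each of the 5 PTH-treated ZDF sera lay above the WT median, but WT replicate 1 was nearly as high as the highest ZDF serum. The fitted log2 fold change was 0.92 (SE 0.68; edgeR FDR 0.896).

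By the highest over the lowest level, PTH-treated WT rats were the most uneven WT group for the 3 measurable arms. Rno-miR-802-5p was 632, 789, 0, 353 and 238 CPM in these rats, and 397, 422, 82.5, 1052 and 969 CPM in PTH-treated ZDF rats. WT replicate 3 had 0 reads of rno-miR-802-5p among 53249, which allows up to 56.3 CPM before TMM scaling. The same serum had 5 reads of rno-miR-122-5p and 1 of rno-miR-122-3p, which made it the lowest of its group for each arm. Rno-miR-122-3p was 141, 460, 14.9, 437 and 84.9 CPM in WT and 159, 198, 153, 477 and 359 CPM in ZDF rats. From WT to ZDF rats rno-miR-802-5p differed by 0.54 on the log2 scale (SE 0.79) and rno-miR-122-3p by 0.22 (SE 0.65), with overlapping groups and edgeR FDR of 0.896 and 0.908.

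Under the anti-sclerostin antibody the ZDF sera spread widely. Rno-miR-122-5p was 243, 1374, 2310 and 123 CPM in ZDF against 302, 193, 151 and 111 CPM in WT rats. For rno-miR-122-3p the values were 104, 928, 1150 and 74.0 CPM in ZDF and 137, 53.5, 81.7 and 222 CPM in WT rats. For rno-miR-802-5p they were 104, 1099, 1078 and 197 CPM in ZDF and 288, 85.7, 163 and 466 CPM in WT rats. ZDF replicates 2 and 3 were high for all 3 arms, and ZDF replicates 1 and 4, the shallowest sera of all with 28015 and 33591 miRNA reads, lay within the WT range. The part of depth in this split was not tested.

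In that contrast the log2 fold change was 2.56 (SE 0.79; edgeR FDR 0.462; exact permutation p = 0.229) for rno-miR-122-5p and 1.57 (SE 0.73; FDR 0.699; exact permutation p = 0.371) for rno-miR-802-5p. The filter left out rno-miR-122-3p, which was not tested (exact permutation p = 0.286). EdgeR called 0 of 161 miRNAs, 0%, with 11 at an unadjusted p below 0.05, whereas DESeq2 called 9. Among those 9 were rno-miR-122-5p and rno-miR-122-3p.

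Neither bone treatment moved the liver miRNAs past the test within a genotype. In ZDF rats, PTH against placebo gave log2 fold changes of -0.05 for rno-miR-122-5p, -0.58 for rno-miR-122-3p and -0.35 for rno-miR-802-5p (edgeR FDR 0.993 for each), where 0 of 154 miRNAs were called, with 4 at an unadjusted p below 0.05 and 0 by DESeq2. The antibody against placebo in ZDF rats gave 0.44, 0.53 and -0.24 in the same order (FDR 0.837, 0.790 and 0.890), where 1.27% of 158 miRNAs were called and none of the arms. With the hemolysis ratio described below as a covariate these values were -0.70, -0.68 and -1.36 (FDR 0.929, 0.929 and 0.738), so the direction of the miR-122 arms is not settled. In WT rats the antibody gave -0.21 (FDR 0.835) for rno-miR-122-5p and 0.86 (FDR 0.522) for rno-miR-802-5p, where edgeR called 0 of 171 miRNAs, with 18 at an unadjusted p below 0.05 and 3 by DESeq2. The SEs of these folds were 0.48 to 0.80 on the log2 scale.

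Of the PTH and antibody responses within a genotype, those to PTH in WT rats had the largest fitted folds, and these too missed the test. Rno-miR-122-5p differed from placebo by 0.92 on the log2 scale (SE 0.66), rno-miR-122-3p by 1.26 (SE 0.64) and rno-miR-802-5p by 1.76 (SE 0.73), each with an edgeR FDR of 0.992. As differences of mean log2(CPM + 1) they were smaller, at 0.32, 0.48 and 0.36. Per extraction control, a scale described below, they were -0.16, 0.05 and 0.41. EdgeR called 0 of 170 miRNAs, with 2 at an unadjusted p below 0.05 and 0 by DESeq2. Without replicate 3 of the PTH-treated WT rats, rno-miR-802-5p reached 2.08 with an FDR of 0.175. The PTH response in ZDF minus that in WT rats was -2.20 (SE 0.98; unadjusted p = 0.0347) for rno-miR-802-5p, -1.92 (SE 0.84; unadjusted p = 0.0320) for rno-miR-122-3p and -1.07 (SE 0.92; unadjusted p = 0.254) for rno-miR-122-5p, all at an edgeR FDR of 0.922. No interaction passed the test among 182 miRNAs for PTH or 189 for the antibody, with 8 and 4 at an unadjusted p below 0.05 and 0 by DESeq2 in both.

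**Figure D2:**
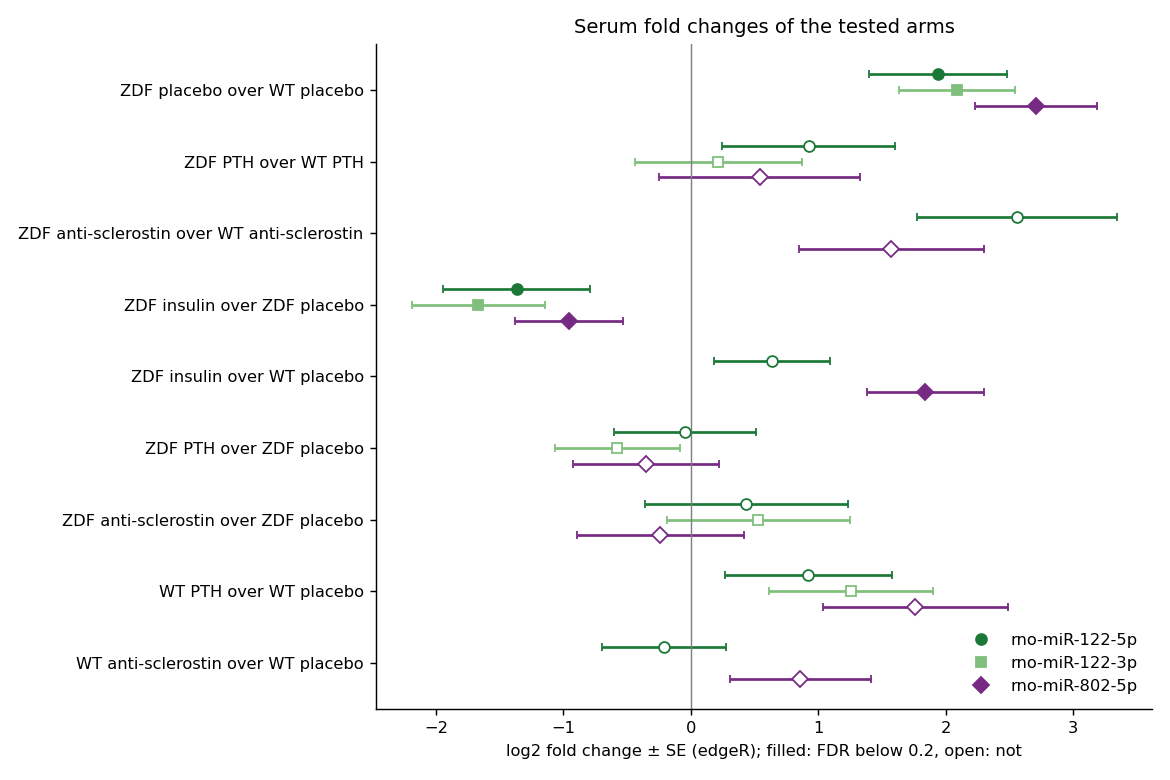
Log2 fold changes of the 3 measurable arms in each serum comparison (first group over second), with bars of ± 1 SE from the edgeR fit and filled points where the FDR was below 0.2. The 3 arms were called higher in placebo-treated ZDF than WT rats, at 1.94 to 2.71, and lower in insulin-treated than placebo-treated ZDF rats, at -0.95 to -1.67.

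Insulin was given to ZDF rats only, and its comparison with placebo-treated ZDF rats asks whether treating the diabetes moved these miRNAs. All 3 measurable arms were lower under insulin and passed the test, where 15.2% of the 151 miRNAs tested were called lower and 26.5% in either direction. Rno-miR-122-3p met the filter on reads mainly through the placebo-treated sera, where it was higher, so this count too is a description. The comparison shares its placebo-treated ZDF sera with the genotype comparison above, so the size of one bears on the size of the other.

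Rno-miR-122-3p showed the clearest fall. It stood at 85.6, 237, 85.1 and 140 CPM in insulin-treated rats, and 4 of 4 lay below the placebo-treated ZDF median of 369 CPM. The log2 fold change was -1.67 (SE 0.52; edgeR FDR 0.0646), or 3.17-fold lower, and the exact permutation p was 0.0476. The ranges overlapped, since placebo replicate 2 at 138 CPM lay below 2 of the insulin-treated sera.

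Rno-miR-122-5p stood at 188, 544, 328 and 180 CPM under insulin, from 9 to 39 reads. All 4 sera lay below the placebo median of 831 CPM and above placebo replicate 2. The log2 fold change was -1.37 (SE 0.58; edgeR FDR 0.160; exact permutation p = 0.357). Rno-miR-802-5p, at 325, 600, 377 and 381 CPM, varied least of all, with a highest over lowest of 1.84-fold. Its log2 fold change was -0.95 (SE 0.42; edgeR FDR 0.165; exact permutation p = 0.206), and its 4 sera also lay below the placebo median of 815 CPM but above placebo replicate 2. The calls of these 2 arms rest on the count model, since the exact tests on the levels did not pass 0.05. With the size factors of DESeq2 in edgeR rno-miR-802-5p was no longer called (FDR 0.206). With DESeq2 itself the call of rno-miR-122-3p alone remained, and with all serum groups in one fit, or without insulin replicate 3, 0 of the 3 arms were called.

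Set against placebo-treated WT rats, insulin-treated ZDF rats remained higher in 1 arm. Rno-miR-802-5p was 3.58-fold higher, a log2 fold change of 1.84 (SE 0.46; edgeR FDR 0.0465), and its lowest insulin-treated serum, at 325 CPM, lay above the highest WT serum, at 178 CPM (exact permutation p = 0.00794). With all serum groups in one fit the FDR of this difference was 0.244. In this comparison 7.79% of 154 miRNAs were called higher, 19.5% were called in either direction and 5.84% were higher without overlap. Here rno-miR-802-5p met the filter on reads mainly through the insulin-treated sera. For rno-miR-122-5p the log2 fold change was 0.64 (SE 0.45; edgeR FDR 0.444), and rno-miR-122-3p was below the filter, with overlapping levels (exact permutation p = 0.302). Whether miR-802 and miR-122 differed in their response to insulin was asked of their ratio below.

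Red blood cell miRNAs moved with insulin. The log2 ratio of rno-miR-451-5p, a red blood cell miRNA, to rno-miR-23a-3p is a common measure of hemolysis, and it was 3.18 to 3.79 in the insulin-treated sera against -0.49 to 1.41 in the placebo-treated ZDF sera, without overlap (exact permutation p = 0.00794). All 4 red blood cell miRNAs of the list were called higher under insulin, where 17 of the 151 miRNAs tested were called higher. Their summed CPM was 229768 to 273049 against 99331 to 159663. With this ratio as a covariate the log2 fold changes under insulin were 0.03, -0.05 and 0.08 for rno-miR-122-5p, rno-miR-122-3p and rno-miR-802-5p, and 0 of 151 miRNAs were called, with 9 at an unadjusted p below 0.05. Because the ratio does not overlap between the groups, the insulin treatment and the red blood cell signal cannot be told apart in this comparison. In the placebo comparison of the genotypes the ratio overlapped (exact permutation p = 0.333), 0 of the 4 red blood cell miRNAs were called, and the log2 fold changes with the covariate were 1.74, 1.88 and 2.50, with FDR of 0.0718, 0.0239 and 0.00575.

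Single members of the marker lists of other tissues were also called in these comparisons. Of 3 pancreas miRNAs 1 was tested, rno-miR-375-3p of the islets, and it was called higher in placebo-treated ZDF than WT rats and lower under insulin. The summed pancreas CPM was 174 to 1677 in WT placebo, 1945 to 6219 in ZDF placebo and 822 to 1873 in ZDF insulin sera. In the placebo comparison 0 of 4 leukocyte miRNAs, 0 of the 1 striated muscle miRNA tested, and 1 of 4 cartilage and osteoblast miRNAs (lower in ZDF rats) were called. Under insulin 1 of 4 leukocyte miRNAs was called lower and 1 of 4 cartilage and osteoblast miRNAs higher. The part of these tissues in the levels of the liver miRNAs was not tested.

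CPM gives a share of all miRNA reads, so the reads were also set against the 3 synthetic RNAs that the study added to each serum at extraction. Per extraction control read, the ZDF to WT placebo log2 differences were 0.68 for rno-miR-122-5p (exact permutation p = 0.516), 1.01 for rno-miR-122-3p (exact permutation p = 0.159) and 1.80 for rno-miR-802-5p (exact permutation p = 0.0238). All 3 kept their direction and were smaller than the differences of 1.58, 1.95 and 2.75 in log2(CPM + 1). Of the 27 comparisons made on this scale, 0 passed an adjusted p of 0.2, and the lowest adjusted p was 0.321.

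No fall under insulin passed the test on this scale. The log2 differences from placebo-treated ZDF rats were -0.08 for rno-miR-122-5p, -0.59 for rno-miR-122-3p and 0.14 for rno-miR-802-5p (exact permutation p = 0.960, 0.460 and 0.913). Single sera moved these values: without placebo replicate 2 the differences of the miR-122 arms were -0.96 (exact permutation p = 0.171) and -1.02 (exact permutation p = 0.171), and over all sets with one serum left out they ran from -0.96 to 0.31 and from -1.11 to -0.20. MiRNA reads per extraction control read were 0.307 to 0.603 in insulin-treated sera, 0.101 to 0.405 in ZDF placebo sera and 0.164 to 0.876 in WT placebo sera. Insulin-treated sera thus held more miRNA reads for each control read at the median, 0.465 against 0.162 in ZDF placebo sera. Against WT placebo rats, rno-miR-802-5p in insulin-treated rats differed by 1.94 (exact permutation p = 0.0238, adjusted p = 0.321).

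Under PTH and under the antibody the genotype differences were larger per extraction control than in log2(CPM + 1), where they were 1.54, 0.89 and 1.68 with PTH and 1.65, 1.48 and 0.92 with the antibody. With PTH they were 2.30, 1.59 and 1.91 for rno-miR-122-5p, rno-miR-122-3p and rno-miR-802-5p (exact permutation p = 0.0952, 0.0397 and 0.0556). With the antibody they were 2.25, 2.11 and 1.55 (exact permutation p = 0.171, 0.171 and 0.257). Every ZDF to WT difference under the same treatment was thus positive on both scales, and none passed the adjustment on the control scale. The 1.68 of rno-miR-802-5p under PTH had an SE of 1.91. It includes WT replicate 3, whose 0 reads count as a log2 level of 0 in log2(CPM + 1). On the control scale 0.5 reads were added instead, and the edgeR fit gave 0.54. The size of this difference thus depends on how that serum is entered.

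**Figure D3:**
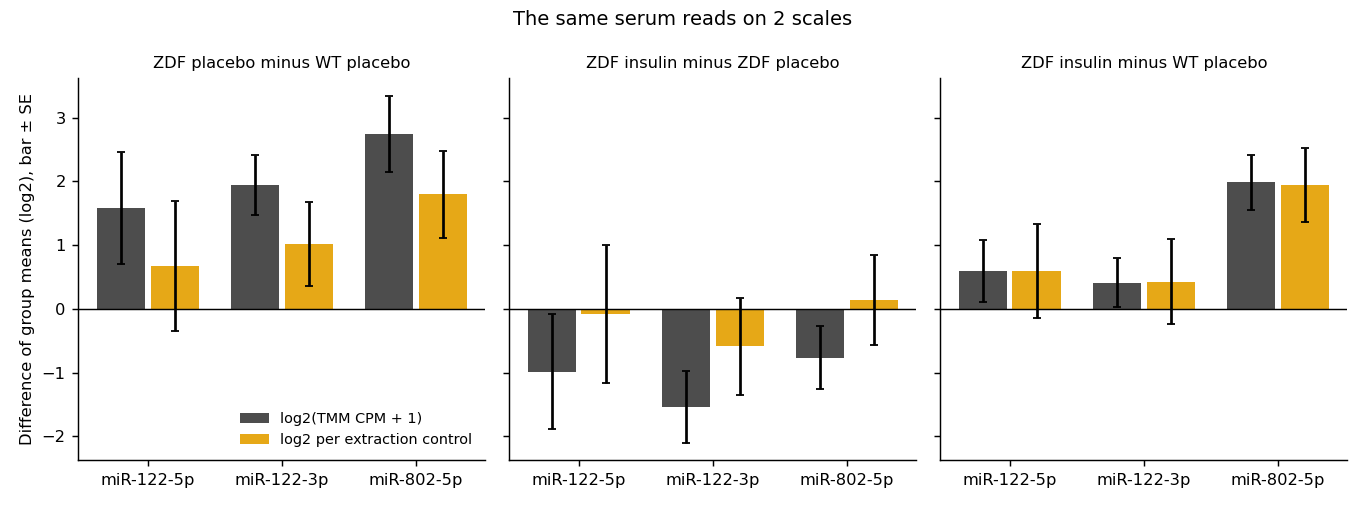
Log2 differences between the means of serum groups for the 3 measurable arms on 2 scales, log2(TMM CPM + 1) in grey and log2 reads per extraction control read in yellow, with error lines of ± 1 SE of the difference. The ZDF to WT placebo differences were 1.58 to 2.75 in CPM and 0.68 to 1.80 per control, and the insulin differences were -1.54 to -0.76 in CPM and -0.59 to 0.14 per control.

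The arms of miR-122 come from the same hairpin. Both are counted in the same library, so their ratio within a serum does not depend on how that library is scaled. The log2 ratio of rno-miR-122-5p to rno-miR-122-3p was 0.91 ± 1.00 (SD, n = 32 sera), with a range of -1.22 to 3.03. The 5p arm was the higher in 26 sera, the 3p arm in 4, and the arms had equal reads in 2. The ratio did not separate ZDF from WT placebo rats, with a difference of -0.34 (exact permutation p = 0.619), nor insulin-treated from placebo-treated ZDF rats, with a difference of 0.51 (exact permutation p = 0.508).

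The ratio of the main arms of the 2 genes differed more between the genotypes. The log2 ratio of rno-miR-802-5p to rno-miR-122-5p was 0.31 ± 0.86 (SD, n = 5) in placebo-treated ZDF and -0.81 ± 0.69 (SD, n = 5) in placebo-treated WT rats. The difference of 1.12 had an exact permutation p of 0.0476 and an adjusted p of 0.190 over 4 ratio comparisons. Leaving out ZDF replicate 2, in which rno-miR-122-5p was lowest, gave 0.77. Under insulin this ratio was 0.53 ± 0.44 (SD, n = 4), a difference of 0.22 from placebo-treated ZDF rats (exact permutation p = 0.643).

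Across the 32 sera the 3 measurable arms varied together. For rno-miR-122-3p and rno-miR-802-5p, which come from different genes, Pearson's r of the log2 levels was 0.830 and Spearman's rho 0.870 (permutation p = 1e-05 for both, the smallest that 100000 permutations can give; adjusted p = 3e-05 and 6e-05 over 6 relations). Without the 2 sera farthest from the median r was 0.812, and after subtraction of the group means it was 0.83 (permutation p = 1e-05). For the arms of miR-122, r was 0.718 (permutation p = 1e-05) and rho 0.725 (permutation p = 2e-05), with 0.705 without the 2 farthest sera and 0.626 within groups (permutation p = 0.0112, adjusted p = 0.0223). For rno-miR-122-5p and rno-miR-802-5p, r was 0.619 and rho 0.683 (permutation p = 5e-05 for both), with 0.629 without the 2 farthest sera and 0.544 within groups (permutation p = 0.00938, adjusted p = 0.0223). The arms in 1 serum share its depth and scaling, and the part of these in the relations was not tested.

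None of the correlations of the hemolysis ratio with the arms had an adjusted p below 0.05. Within groups, those with rno-miR-122-3p and rno-miR-802-5p were negative with an adjusted p below 0.2. Its r with rno-miR-122-5p was -0.0795 (permutation p = 0.665) and rho -0.0275 (permutation p = 0.880). With rno-miR-122-3p r was -0.237 (permutation p = 0.191) and rho -0.116 (permutation p = 0.525), and with rno-miR-802-5p r was -0.163 (permutation p = 0.381) and rho -0.187 (permutation p = 0.304). Within groups r was -0.125, -0.254 and -0.340, with permutation p = 0.476, 0.161 and 0.0822 and adjusted p = 0.476, 0.194 and 0.123. Within groups rho was -0.175 (permutation p = 0.372, adjusted p = 0.372), -0.306 (permutation p = 0.111, adjusted p = 0.134) and -0.392 (permutation p = 0.0387, adjusted p = 0.0581).

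**Figure D4:**
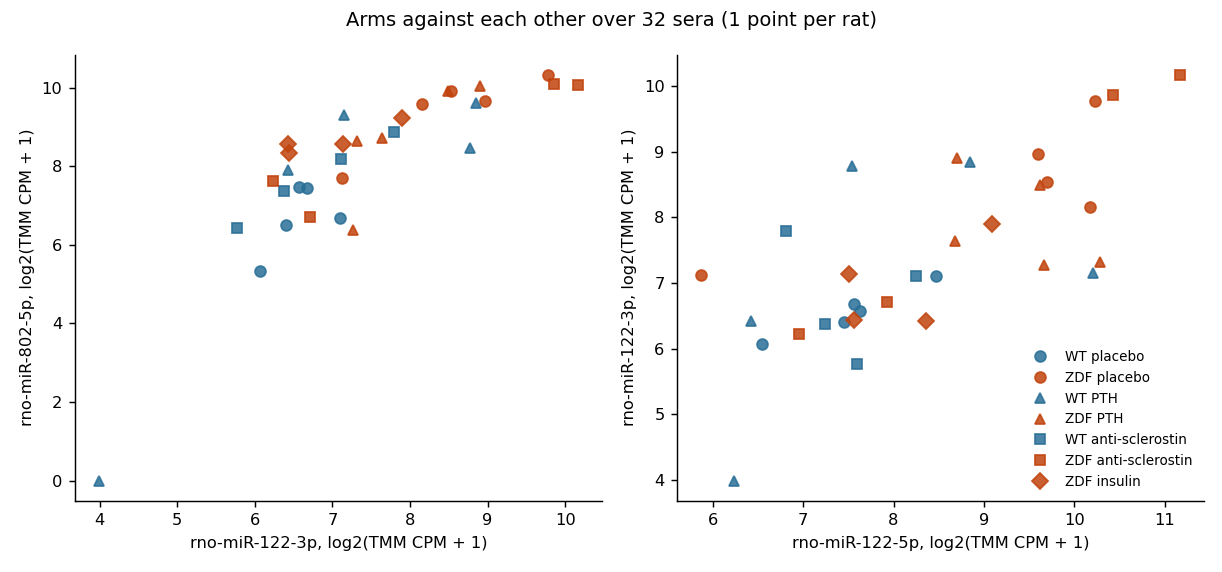
Levels of rno-miR-802-5p plotted against those of rno-miR-122-3p (left) and of rno-miR-122-3p against rno-miR-122-5p (right) in the 32 sera, as log2(TMM CPM + 1), with 1 point per rat, WT in blue, ZDF in orange and a symbol for each treatment. The sera with more rno-miR-122-3p also held more rno-miR-802-5p (r = 0.830) and more rno-miR-122-5p (r = 0.718).

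Among 161 other serum miRNAs with a mean of at least 10 reads, the closest in pattern to rno-miR-802-5p was the 3p arm of miR-122, with r = 0.83, followed by rno-miR-192-5p at 0.75, rno-miR-145-5p at 0.64 and rno-miR-92b-3p at 0.63. The closest to rno-miR-122-5p were rno-miR-122-3p at 0.72, rno-miR-101b-3p at 0.64, rno-miR-31a-5p at 0.64 and rno-miR-802-5p at 0.62. The closest to rno-miR-122-3p beyond the other arms was rno-miR-192-5p at 0.70. These values describe 32 sera that share the group differences above. After subtraction of the group means, rno-miR-101b-3p was the closest to rno-miR-122-5p, at 0.68, ahead of rno-miR-122-3p at 0.63. The closest to rno-miR-802-5p was still rno-miR-122-3p, at 0.83, while rno-miR-122-5p went from rank 5 to rank 18.

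Rno-miR-192-5p, a miRNA of liver, gut and kidney, belongs to a list of 9 other liver-expressed miRNAs, of which 8 were in the files and 4 had enough reads in serum to be tested. It was called higher in placebo-treated ZDF than WT rats, at 10888 ± 5903 (SD, n = 5) against 3181 ± 2075 CPM (SD, n = 5), with a log2 fold change of 1.74 (SE 0.49; edgeR FDR 0.0519; exact permutation p = 0.0159). The other 3 tested members of the list were not called: rno-miR-148a-3p at -0.74 (FDR 0.321), rno-miR-101a-3p at -0.26 (FDR 0.836) and rno-miR-101b-3p at 0.38 (FDR 0.678). The median of the 4 was 0.06. Under insulin rno-miR-192-5p was called lower, at -1.48 (SE 0.41; edgeR FDR 0.0646), and the other 3 were not called. In the PTH and anti-sclerostin comparisons, and in insulin-treated ZDF against WT placebo rats, 0 of the 4 passed.

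In group order, the mean of rno-miR-122-5p ran from 1013 ± 1032 CPM (SD, n = 4) in antibody-treated ZDF rats through placebo-treated ZDF rats at 803 ± 457 (SD, n = 5) and PTH-treated ZDF rats at 735 ± 347 (SD, n = 5) to 398 ± 466 (SD, n = 5) in PTH-treated WT rats. Insulin-treated ZDF rats came next at 310 ± 170 (SD, n = 4), then placebo-treated and antibody-treated WT rats at 201 ± 94.5 (SD, n = 5) and 189 ± 82.4 CPM (SD, n = 4). No neighbours in this order, nor in those of the other 2 measurable arms, were told apart by the exact permutation test of log2(CPM + 1), with p of at least 0.119. The order is that of mean CPM. By mean log2 level, PTH-treated ZDF rats came first for rno-miR-122-5p, at 9.39 against 9.12 in antibody-treated ZDF rats. For rno-miR-802-5p the mean was highest in placebo-treated ZDF rats, at 809 CPM, and lowest in placebo-treated WT rats, at 117 CPM. By mean CPM, the lowest of the ZDF groups was insulin-treated for all 3 arms.

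Bone held next to none of these miRNAs. Rno-miR-122-5p had 10 reads in 7 of the 16 bone libraries, rno-miR-802-5p 5 reads in 3, rno-miR-802-3p 4 reads in 4 and rno-miR-122-3p 2 reads in 1, out of 6401893 miRNA reads. By group, the bone reads of rno-miR-122-5p were 1, 1, 1 and 0 in WT placebo, 1, 0, 0 and 1 in ZDF placebo, 0, 0, 2 and 0 in WT PTH and 0, 0, 0 and 3 in ZDF PTH rats. No bone library exceeded 3 reads of any of the arms, so none was tested in any bone comparison between genotypes or treatments, and no difference was detectable at this depth. Bone libraries also held 2 to 65 reads of the extraction controls, with a median of 11.5, although the methods describe adding these only to serum. What these control reads share with the bone reads of the liver miRNAs was not tested.

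Between the tissues of placebo-treated rats the gap was large. In WT rats rno-miR-122-5p had 123 reads of 620609 in serum and 3 of 2111655 in bone, a share 139.5-fold higher in serum (95% exact interval 46.6 to 686). In ZDF rats it had 300 reads of 391570 in serum and 2 of 1916794 in bone, a share 734-fold higher (202 to 6091). Rno-miR-802-5p had 302 reads against 1 in ZDF rats, a share 1478-fold higher (263 to 58582), and in WT rats, with 76 reads against 0, a share at least 86.2-fold higher. Rno-miR-122-3p had 0 reads in the bones of both groups, and its share in serum was at least 68.1-fold higher in WT and at least 269-fold higher in ZDF rats, taking 3 reads over the group as the floor. These intervals cover counting error only.

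The 3 measurable arms were called higher in serum than in bone in both genotypes, where 38.7% of 222 miRNAs were called higher in WT and 40.1% of 202 in ZDF rats, and 80.6% and 86.1% were called in either direction. For all 3 the serum and bone ranges lay apart (exact permutation p = 0.00794), as was the case in the same direction for 28.8% and 32.2% of all miRNAs tested. With shares this high, the call itself sets the arms little apart from other miRNAs. No placebo bone library held more than 1 read of any arm, so the arms met the filter only through serum. The outcome of these tests was thus largely set by the near absence of the arms in bone, and they add no separate support. According to the methods the placebo bones came from rats that also gave serum. No label ties a bone to its serum, so the tests treated libraries that share animals as independent.

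**Figure D5:**
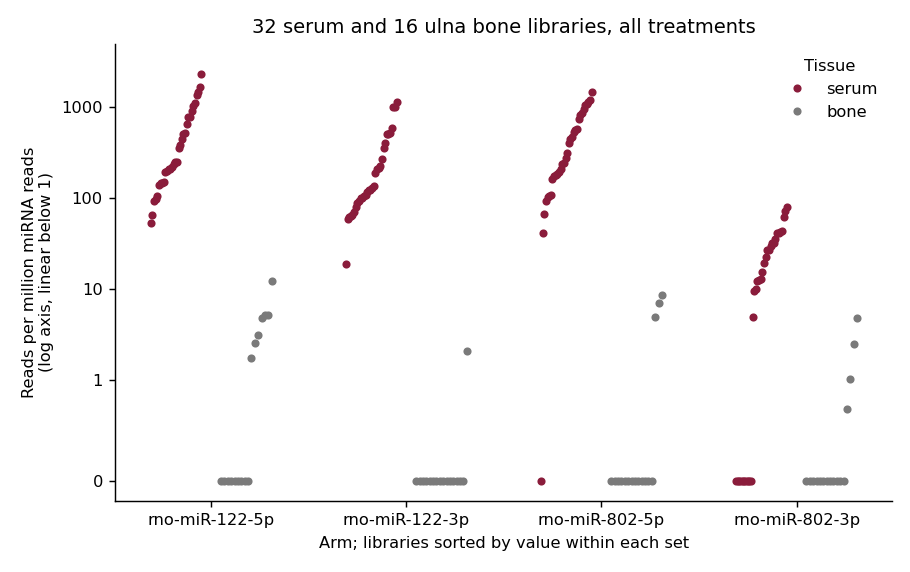
Levels of each arm, as CPM without TMM scaling, in the 32 serum and 16 bone libraries, 1 point per library sorted by value, on an axis that is logarithmic above 1 and linear below. Rno-miR-122-5p was found in 32 of 32 sera and in 7 of 16 bones, where no library held more than 3 reads.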

How the data were processed

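Small RNA libraries of 32 sera and 16 ulnae were grouped by the tissue, genotype and treatment in their labels. Replicates are separate rats. The authors trimmed reads with cutadapt, mapped them with Bowtie and miRDeep2 to Rnor 6.0 and then to miRBase, and deposited raw counts per mature miRNA. The RPM values that the authors deposited beside them, scaled to all reads of a library, gave library totals only (3017240 to 10829922 reads in serum, 0.529 to 4.09% of them on miRNAs, and 2327292 to 8536011 in bone). A second RPM column was not used. The 3 extraction controls and 7 other added controls were left out of the miRNA counts.

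Counts of only the groups compared were fitted with edgeR 4.0.16 in R 4.3.3 (filterByExpr with a minimum count of 10, TMM, quasi-likelihood test, legacy = TRUE), and a miRNA was called at a Benjamini-Hochberg FDR below 0.2. Genotype-by-treatment terms came from fits of 4 groups. Exact permutation tests (two-sided, scipy 1.17.1) used log2(CPM + 1), and ratios a pseudocount of 0.5 reads. The smallest exact p was 0.00794 for 5 against 5 or 4 against 5, and 0.0286 for 4 against 4. Intervals are 95% and cover counting error only. The tests were tried on simulated counts. Alternatives were DESeq2 1.42.0, its size factors, library totals, weaker filters, all groups in one fit, the hemolysis ratio as a covariate and each replicate left out.

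The miRNAs followed and the lists were chosen with earlier results of these data known. Named miRNAs are the 4 arms, the lists and the 5 closest in pattern to each arm.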

Additional observations from a re-analysis of the deposited data

Results flagged for a closer look

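The level of each arm and the 2 log2 ratios of arms were examined in each serum group for a value far from the rest. Sets with no more than 3 reads of an arm in any serum were left out. For rno-miR-802-3p this left only the placebo, antibody and insulin groups of ZDF rats. Of the 38 sets of 4 or 5 sera examined, 2 held such a value, where chance gives about 1 in 20, and both were rno-miR-802-3p at a few reads. In placebo-treated ZDF rats, replicate 4 stood at 13.6 CPM from 1 read, against 31.6 to 36.9 CPM in the other 4. In insulin-treated ZDF rats, replicate 2 stood at 83.8 CPM from 6 reads, and the other 3 sera had 0 reads. With 3 sera at 0 reads, any value above 0 stands apart, so the rate of 1 in 20 does not apply to this set.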

How the results depend on the processing

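In the placebo comparison of the genotypes all 3 measurable arms stayed called under every alternative and without any single replicate. Of the 5 serum comparisons whose number of called arms changed, ZDF against WT rats under the antibody went from 0 to 2 arms with DESeq2, with no filter beyond 1 read and with independent filtering. In an earlier analysis of these data, independent filtering of all miRNAs with 1 read gave calls in most simulations without any change. The extra calls of that setting, here and below, are therefore not counted as support. Insulin against placebo in ZDF rats went from 3 to 2 with the size factors of DESeq2 in edgeR, to 1 with DESeq2, to 0 with all groups in one fit, to 0 with the hemolysis covariate, and to between 0 and 3 without one replicate, namely to 1 without placebo replicate 1, 4 or 5 or insulin replicate 1 or 4 and to 0 without insulin replicate 3. The hemolysis covariate turned the log2 fold changes of rno-miR-122-5p to 0.026 and of rno-miR-802-5p to 0.080, and it also turned those of the uncalled miR-122 arms for the antibody against placebo in ZDF rats, to -0.70 and -0.68. PTH against placebo in WT rats went from 0 to 1 with independent filtering, and to between 0 and 1 without one replicate. Insulin-treated ZDF against placebo-treated WT rats went from 1 to 0 with all groups in one fit and to 2 with the hemolysis covariate, and the PTH interaction from 0 to 1 with independent filtering. The cause of these changes was not tested.

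Between placebo-treated ZDF and WT rats the miRNAs called in all were 10, with 33 under no filter, 37 under independent filtering, 16 with DESeq2 and 8 to 17 without one replicate. Under insulin against ZDF placebo they were 40 (17 higher, 23 lower), with 12 for all groups in one fit, 0 with the hemolysis covariate and 4 to 59 without one replicate, and library totals gave 9 higher and 50 lower around a median log2 fold change of -0.40 against -0.10.

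Without one replicate, log2 differences per extraction control crossed 0.05 in some sets. ZDF minus WT placebo ran from 0.29 to 1.56 (rno-miR-122-5p), 0.63 to 1.45 (rno-miR-122-3p) and 1.47 to 2.32 (rno-miR-802-5p), and the ratio of rno-miR-802-5p to rno-miR-122-5p from 0.77 to 1.35. ZDF minus WT under PTH ran from 1.76 to 2.85, 1.27 to 1.97 and 1.23 to 2.36 for the arms in that order, under the antibody from 1.53 to 3.20 (rno-miR-122-5p) and 1.45 to 3.01 (rno-miR-122-3p), insulin minus placebo in ZDF rats from -0.96 to 0.31, -1.11 to -0.20 and -0.38 to 0.47 for the arms in order, and insulin-treated ZDF minus WT placebo from 1.53 to 2.28 (rno-miR-802-5p). No paired analysis was possible because the labels share no replicate numbers between groups. Depth limits rno-miR-802-3p and all bone values to a few reads.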
